A study of Mus musculus with 4 samples.

Results

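The receptors described here are *Ctla4*, *Lag3*, *Pdcd1*, *Havcr2*, *Tigit*, *Cd160*, *Cd244*, *Btla*, *Cd96* and *Cd200r1*, 10 genes that encode inhibitory or co-regulatory receptors of T cells. They were chosen by name rather than by a cut on their measured values, but with earlier results of these data known. Every probe on the array that carried one of these symbols and was not a control was taken. A total of 9 of the 10 genes had a probe, with 13 probes in all among the 41174 probes of the array. *Tigit* had none under its present symbol, its older symbol or its accession, and therefore has no value. CD8αβ+ IELs are intraepithelial T cells of the small intestine that carry the α and β chains of CD8. Their expression was compared with that in CD8αβ+ SPLs, which are T cells sorted from the spleen by the same surface markers. The study describes the IELs as antigen-experienced, and no memory marker was used in the sort. Tissue and activation state therefore cannot be told apart. Both groups came from wild-type male mice with an age of 8 to 12 weeks. Each group comprised 2 samples, and per the study's methods each sample was pooled from several mice by sorting CD45+ CD3+ CD8α+ CD8β+ TCRβ+ cells. A separate 1-color Agilent array was used for every sample. Slide 1 carried the arrays of IEL replicate 1 and SPL replicate 2, and slide 2 those of the remaining samples.

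Inhibitory receptors restrain T cells after recognition of antigen. They compete with costimulatory receptors for shared ligands, or they recruit phosphatases and adaptors that dampen signaling from the T cell receptor and CD28. Several of them are induced by activation and are kept at the surface by antigen-experienced T cells, and T cells of the intestinal epithelium are known for an activated but restrained state.

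For 8 of the 9 measured receptor genes, the levels of the 2 IEL arrays exceeded those of the 2 SPL arrays, and for *Btla* they were lower. Under the normexp background correction, 6 of the 9 were higher on both, and 8 under a second version fitted without spots far below background. Of all 27902 probes with a value on the 4 arrays, 24.4% were higher on both IEL arrays and 24.6% were lower on both. The median log2 fold change of the receptor genes was 2.70, against -0.00072 over all tested probes. This median was 1.12 under normexp and 2.32 under its second version. It was 1.77 without SPL replicate 2, 2.00 without IEL replicate 1, 3.40 without IEL replicate 2 and 3.67 without SPL replicate 1. None of the 13 probes passed the adjusted threshold in limma with all 4 arrays, and neither did any other of the 27927 tested probes (0% called in either direction). The adjusted p was 0.634 for every receptor probe. At an unadjusted p under 0.05, 7 of the 9 genes were higher, against a background of 4.64% of probes higher (1295 probes) and 1.1% lower (308 probes). With 2 samples per group, exact permutation of the labels cannot give a two-sided p below 0.333, so no such test of a single gene could pass. Because the samples are pools, these p-values measure only the spread between the pools. In such bulk RNA, fewer cells that express a gene and less RNA per cell cannot be told apart.

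The arrays differed in ways that the group labels do not cover. Across probes, IEL replicate 2 was more similar to SPL replicate 1 (Pearson's r = 0.992) than to IEL replicate 1 (r = 0.946), and the samples of slide 1 had the lowest r (0.911). These values are descriptions across 27902 probes, which are not independent replicates. The share of spots well above background was between 63.7% and 69.8%. Values below are given as the processed intensity of each array in scanner units, before scaling. Fold changes were computed on log2 levels after each array had been scaled by its 75th percentile, and are stated as CD8αβ+ IELs over CD8αβ+ SPLs.

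**Figure D1:**
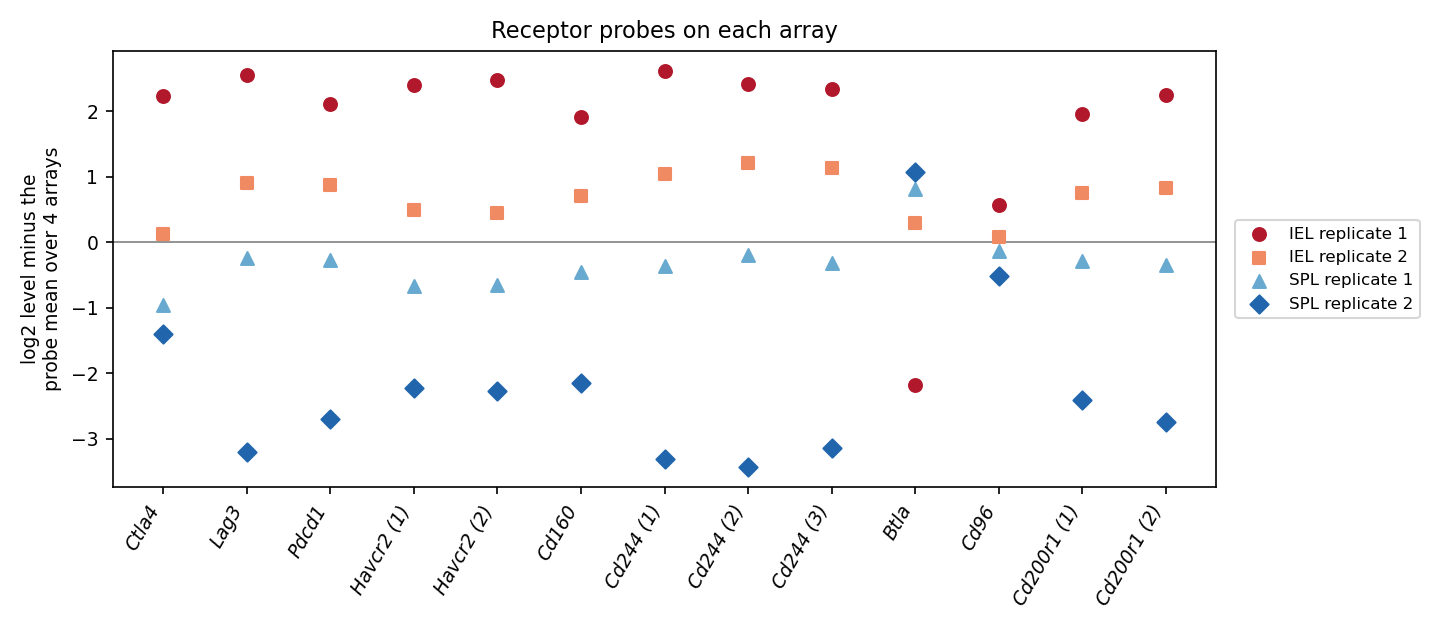
Scaled log2 level of each receptor probe (x axis) on each of the 4 arrays, given as the distance from the mean of that probe over the arrays (y axis, log2 units). Numbers in brackets separate probes of 1 gene, the first being the brightest. The order from top to bottom is IEL replicate 1, IEL replicate 2, SPL replicate 1 and SPL replicate 2 for every gene except *Btla*, where it is turned around.

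CTLA-4 and PD-1 belong to the CD28 family. CTLA-4, encoded by *Ctla4* (probe A_52_P184548, chr1:60971508-60971567 of mm9), takes the ligands CD80 and CD86 away from CD28. Its intensity was 869 and 282 in IEL replicates 1 and 2, and 148 and 137 in SPL replicates 1 and 2. Both IEL arrays lay above both SPL arrays, and the SPL arrays were close to each other, whereas the IEL arrays differed by 2.10 log2 units. The log2 fold change of *Ctla4* was 2.35 (standard error 0.761, 95% interval 0.30 to 4.39), or 5.08-fold, with an adjusted p of 0.634 in limma. PD-1, encoded by *Pdcd1* (probe A_51_P285736, chr1:95935064-95935123), binds PD-L1 and PD-L2 and recruits the phosphatase SHP-2. Its intensity was 807 and 480 in the IEL replicates, and 239 and 56.0 in the SPL replicates. The groups did not overlap, with SPL replicate 2 well below SPL replicate 1. The log2 fold change of *Pdcd1* was 2.98 (standard error 0.949), or 7.87-fold (adjusted p = 0.634 in limma).

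LAG-3 and TIM-3 are receptors of the immunoglobulin superfamily found on activated T cells. LAG-3, encoded by *Lag3* (probe A_51_P264825, chr6:124854570-124854866), binds MHC class II. Its intensity was 1448 and 648 in the IEL replicates, and 321 and 52.0 in the SPL replicates. The 4 arrays were spread over a wide range, and the SPL replicates differed by 2.96 log2 units, which was more than the 1.64 between the IEL replicates. The log2 fold change of *Lag3* was 3.46 (standard error 1.17), or 11-fold (adjusted p = 0.634 in limma). TIM-3, encoded by *Havcr2*, binds galectin-9 and phosphatidylserine, and was measured by 2 probes on chromosome 11. The brighter probe (A_51_P109508, chr11:46294650-46294709) read 928 and 344 in the IEL replicates, and 170 and 72.9 in the SPL replicates. The other probe (A_52_P560535, chr11:46269921-46269980) read 131 and 44.8 in the IEL replicates, and 23.1 and 9.43 in the SPL replicates. Both probes placed the arrays in the same order without overlap of the groups, and their log2 fold changes were 2.89 (standard error 0.864, 7.41-fold) and 2.92 (adjusted p = 0.634 in limma for both).

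CD244, CD160 and CD200R1 were each measured by a probe that crosses an intron, as shown by a genomic span longer than its 60 bases. The sequences of these probes are shown because such a probe binds the whole of its length only in spliced RNA. *Lag3* was also measured by a probe of this kind. The second *Havcr2* probe is shown because its fold was close to that of the first at a distant position, and the *Cd96* probe because its intensities were nearly level.
Cd244 A_52_P541344: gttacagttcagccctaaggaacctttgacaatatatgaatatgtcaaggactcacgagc
Cd160 A_51_P285047: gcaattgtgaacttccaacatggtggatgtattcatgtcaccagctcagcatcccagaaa
Cd200r1 A_51_P407841: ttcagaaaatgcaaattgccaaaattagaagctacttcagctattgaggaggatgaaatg
Havcr2 A_52_P560535: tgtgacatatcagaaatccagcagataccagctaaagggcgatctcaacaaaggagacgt
Cd96 A_52_P279425: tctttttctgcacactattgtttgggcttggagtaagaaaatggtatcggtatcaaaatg

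CD244, or 2B4, is a SLAM family receptor that binds CD48 and can activate or inhibit. Its gene, *Cd244*, now named *Cd244a*, was measured by 3 probes on chromosome 1. The brightest (A_51_P205209, chr1:173513231-173513290) read 6514 and 3037 in the IEL replicates, and 1275 and 209 in the SPL replicates. The probe that crosses an intron (A_52_P541344, chr1:173507474-173508000) read 540 and 329 in the IEL replicates, and 137 and 18.2 in the SPL replicates. All 3 probes placed both IEL arrays above both SPL arrays, and SPL replicate 2 was far below the rest. The third probe (A_52_P26766, chr1:173514032-173514091) was dim, with 160 and 96.9 in the IEL replicates, and 39.1 and 6.96 in the SPL replicates, the last of which was not well above background. *Cd244* had the largest log2 fold change of the receptors, with 3.66 (standard error 1.15), or 12.6-fold (adjusted p = 0.634 in limma). The other two probes gave 3.63 and 3.46.

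CD160 and BTLA share the ligand HVEM. CD160, encoded by *Cd160* (probe A_51_P285047, chr3:96609753-96612738), is found on intraepithelial lymphocytes, NK cells and activated CD8+ T cells. Its intensity was 1950 and 1176 in the IEL replicates, and 580 and 227 in the SPL replicates. The groups were apart, and this gene had the smallest unadjusted p of the receptors in limma, 0.0209. The log2 fold change of *Cd160* was 2.61 (standard error 0.737), or 6.10-fold (adjusted p = 0.634 in limma). BTLA, encoded by *Btla* (probe A_51_P402359, chr16:45252118-45252177), inhibits B and T cells and is carried by most resting lymphocytes. Its intensity was 40.7 and 316 in the IEL replicates, and 501 and 750 in the SPL replicates. IEL replicate 1 was far below the other arrays, and IEL replicate 2 lay just below SPL replicate 1. The log2 fold change of *Btla* was -1.89 (standard error 0.872, 95% interval -4.23 to 0.46), or 3.70-fold lower in CD8αβ+ IELs (adjusted p = 0.634 in limma). *Btla* is also a gene of B cells, and the summed level of 7 B cell markers was 3.60 and 21.2 in the IEL replicates, and 27.4 and 20.8 in the SPL replicates. This sum was highest in SPL replicate 1, and *Btla* was highest in SPL replicate 2. The part of B cell RNA in the *Btla* values was not tested. HVEM itself (*Tnfrsf14*, singled out after its values were seen) read 199 and 276 in the IEL replicates, and 332 and 394 in the SPL replicates, with a log2 fold change of -0.08.

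CD96 binds the nectin-like protein CD155, a ligand that it shares with TIGIT and the activating receptor CD226. The probe of *Cd96* (A_52_P279425, chr16:46038560-46038619) read 9618 and 9632 in the IEL replicates, and 9129 and 8835 in the SPL replicates. These intensities were almost level, though both IEL arrays were already slightly above both SPL arrays. The size of the gap between the groups came mainly from the scaling. The 75th percentile was 312 and 435 units on the IEL arrays, and 479 and 605 units on the SPL arrays. The log2 fold change of *Cd96* after scaling was 0.65 (standard error 0.304, 95% interval -0.17 to 1.47), or 1.57-fold (adjusted p = 0.634 in limma). CD200R1, encoded by *Cd200r1*, binds CD200 and inhibits through the adaptors DOK1 and DOK2. Its brighter probe (A_52_P463518, chr16:44794670-44794729) read 231 and 140 in the IEL replicates, and 75.5 and 21.8 in the SPL replicates. The probe that crosses an intron (A_51_P407841, chr16:44792935-44794321) read 243 and 127 in the IEL replicates, and 62.2 and 14.9 in the SPL replicates. Both probes of *Cd200r1* were higher on each IEL array than on each SPL array, with log2 fold changes of 2.70 (standard error 0.858, 6.48-fold) and 3.08 (adjusted p = 0.634 in limma for both). Under normexp, the log2 fold change of *Cd200r1* was 0.15 (adjusted p = 0.906 in limma), and under its second version 1.70. The probes of *Cd200r1*, *Btla* and *Cd96* lie within 1.25 Mb of chromosome 16, and 1 of these neighbors was higher, 1 lower and 1 nearly level before scaling.

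The size of the differences was not the same on both slides. Each slide carried a single sample of each group, so slide and sample cannot be told apart. On slide 1, IEL replicate 1 exceeded SPL replicate 2 by 54.0-fold for *Lag3*, 60.5-fold for *Cd244* and 12.3-fold for *Ctla4*. On slide 2, IEL replicate 2 exceeded SPL replicate 1 by 2.23-fold, 2.63-fold and 2.10-fold for the same genes. The median log2 difference of the receptor genes was therefore 4.36 on slide 1 and 1.15 on slide 2, against -0.0052 and 0.0017 over all probes. *Btla* was 9.51-fold lower on slide 1 and 1.44-fold lower on slide 2. A difference of at least 2-fold in favor of CD8αβ+ IELs was reached on each slide by 7 receptor genes and by 1.79% of all probes (500 of 27902). The exceptions were *Cd96*, with log2 differences of 1.08 and 0.22, and *Btla*. The same order of arrays, from IEL replicate 1 through IEL replicate 2 and SPL replicate 1 down to SPL replicate 2, was found for 8 receptor genes and for 13.8% of all probes. The reverse order was found for *Btla* and for 14% of probes.

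**Figure D2:**
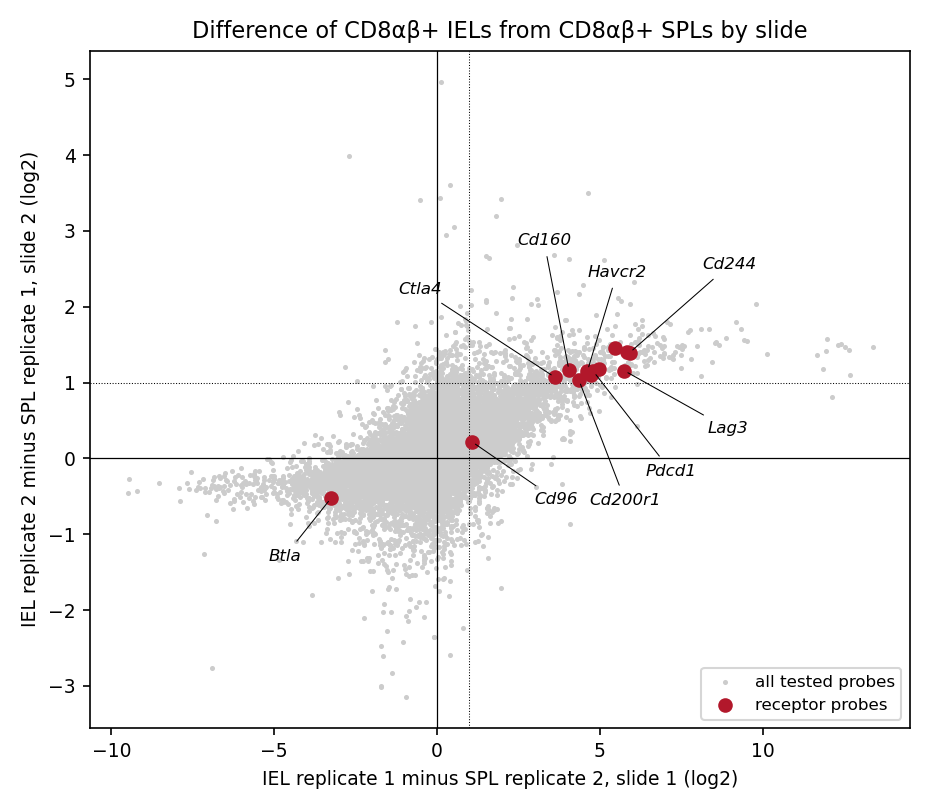
Difference of CD8αβ+ IELs from CD8αβ+ SPLs in log2 units on slide 1 (x axis) and slide 2 (y axis) for all tested probes (gray) and the 13 receptor probes (red, with names at the brightest probe of each gene). Dotted lines mark a 2-fold difference. A total of 7 genes lie beyond both lines, at 3.62 or more on slide 1 and at 1.03 or more on slide 2, with *Cd96* closer to 0 and *Btla* below 0 on both axes.

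Leaving out single arrays changed the calls of 4 receptors. Without IEL replicate 2, *Ctla4* (log2 fold change 3.40, adjusted p = 0.00795 in limma), *Havcr2* (3.85, adjusted p = 0.0276) and *Cd160* (3.21, adjusted p = 0.0473) were higher past the threshold. *Btla* was lower past it under the same setting (-3.13, adjusted p = 0.00729 in limma). In that setting 9.12% of all 28441 tested probes passed as higher and 10.3% as lower, and CD8αβ+ IELs were represented by 1 array that is assumed to vary like the SPL arrays. *Lag3*, *Pdcd1*, *Cd244*, *Cd96* and *Cd200r1* had adjusted p between 0.0707 and 0.0998 there. Without IEL replicate 1, the log2 fold change was 1.29 for *Ctla4* and -0.65 for *Btla*. Without SPL replicate 2, *Cd244* was at 2.18 and *Lag3* at 1.98, and without SPL replicate 1 they were at 5.13 and 4.94, with no call under these 3 settings. Under normexp, the 9 genes kept their sign, with log2 fold changes from 0.15 for *Cd200r1* and 0.93 for *Ctla4* to 3.19 for *Cd244*, and -0.80 for *Btla*. The second normexp version gave 1.70, 1.99, 3.38 and -1.30 for these genes in turn.

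**Figure D3:**
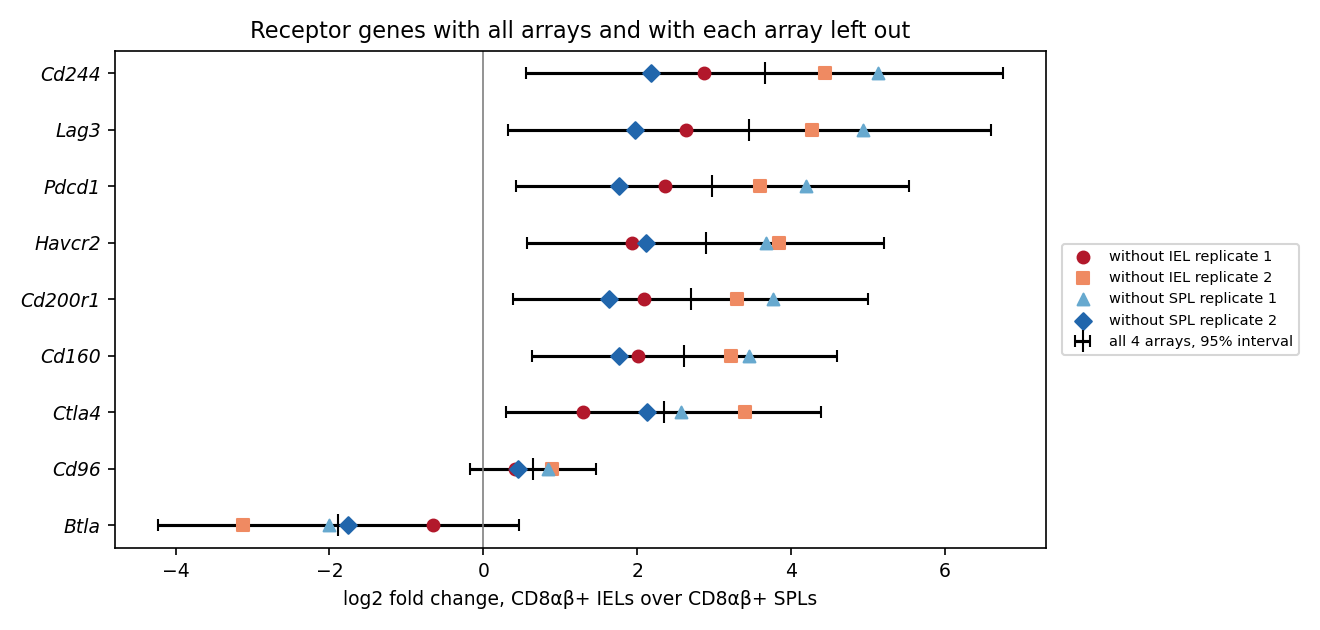
Log2 fold change of each receptor gene (x axis) with all 4 arrays, with its 95% interval, and with each array left out in turn (colored symbols). Every gene keeps its sign. The intervals of *Cd96* and *Btla* include 0, and *Btla* lies between -3.13 and -0.65 without single arrays.

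The promoters of the receptors were read from RefSeq windows that run from 250 bases before to 50 bases after each gene's start on GRCm38.p6. Windows were found for 8 of the 10 genes, with a second start for *Cd160*, and those of the gene with the largest fold change, of *Havcr2* and of the only lower gene are printed. Capitals mark matches on either strand. The AP-1 motif was searched as TGANTCA, with any base at N, and the RUNX motif as TGTGGT, whose letters on the other strand read ACCACA. AP-1 factors act downstream of T cell activation, and RUNX3 sets the CD8 T cell program.
Cd244a, chr1:171558943-171559242, plus strand: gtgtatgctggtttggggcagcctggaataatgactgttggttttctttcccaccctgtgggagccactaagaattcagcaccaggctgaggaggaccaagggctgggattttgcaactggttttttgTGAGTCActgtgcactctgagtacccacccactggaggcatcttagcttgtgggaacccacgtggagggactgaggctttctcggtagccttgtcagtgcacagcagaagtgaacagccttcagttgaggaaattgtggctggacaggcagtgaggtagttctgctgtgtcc
Havcr2, chr11:46454681-46454980, plus strand: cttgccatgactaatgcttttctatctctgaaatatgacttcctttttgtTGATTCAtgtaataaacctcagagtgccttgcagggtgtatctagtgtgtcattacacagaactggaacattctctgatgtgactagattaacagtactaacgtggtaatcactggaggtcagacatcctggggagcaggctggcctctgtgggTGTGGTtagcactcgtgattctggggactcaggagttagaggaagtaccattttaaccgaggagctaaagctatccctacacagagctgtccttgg
Btla, chr16:45224087-45224386, plus strand: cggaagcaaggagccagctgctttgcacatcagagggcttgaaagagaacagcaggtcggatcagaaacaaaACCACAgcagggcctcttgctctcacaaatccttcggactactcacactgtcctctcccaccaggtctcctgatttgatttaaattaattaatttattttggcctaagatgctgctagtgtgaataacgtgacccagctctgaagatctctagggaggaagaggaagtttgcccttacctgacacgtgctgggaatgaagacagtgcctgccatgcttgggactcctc

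The AP-1 letters were in 2 of the 9 windows. They began 122 bases before the start of *Cd244*, as TGAGTCA, and 200 bases before that of *Havcr2*, as TGATTCA. Of the 32851 windows of this length that were counted, which left out a chromosome, 7.81% hold letters of this pattern. These are called all windows below. The RUNX letters occurred in 6 windows, those of *Havcr2*, *Btla*, *Cd96*, *Tigit* and both of *Cd160*, against 16.8% of all windows. They were thus found before genes that were higher, lower and nearly level before scaling. The T-box motif GGTGTGA was found in 1 window of *Cd160* (3.98% of all windows), and the TCF and LEF motif ATCAAAG in that of *Ctla4* (3.73%). The NR4A motif AAAGGTCA (1.51%) and the BLIMP-1 motif GAAAGTGA (1.47%) were in none of the 9 windows. A match is a description of letters and was not tested as a binding site.

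The other genes of the pathway had list medians between -0.03 and 0.59. None passed the threshold in limma, and the counts below use the 24.4% and 24.6% of all probes given above as background. Of 15 ligands, 5 were higher on both IEL arrays and 2 were lower on both, with a median log2 fold change of 0.15 that turned to -0.06 under normexp and to -0.05 without IEL replicate 1. *Pdcd1lg2*, which encodes PD-L2, read 341 and 134 in the IEL replicates, and 76.0 and 43.4 in the SPL replicates (log2 fold change 2.44). *Lgals3*, which encodes galectin-3, a ligand of LAG-3, read 3274 and 1343 against 929 and 659 (1.97). *Pvrl2*, which encodes nectin-2, was dim, with 35.9 and 10.1 against 8.94 and 13.2 (1.36), and its intensities overlapped before scaling. *Cd274*, the gene of PD-L1 and singled out after its values were seen, had a log2 fold change of 0.15.

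Of 13 costimulatory and related receptors, 3 were higher and 4 lower on both IEL arrays, with a median of 0.07 that turned to between -0.13 and -0.06 with any 1 array left out. *Slamf6*, a SLAM family receptor of less differentiated T cells, read 179 and 2494 in the IEL replicates, and 3214 and 3912 in the SPL replicates (log2 fold change -1.86). As for *Btla*, IEL replicate 1 stood apart and IEL replicate 2 was close to the SPL arrays. *Cd7*, a receptor of T and NK cells, read 28097 and 19845 against 13106 and 7778 (1.77), and *Cd2*, an adhesion receptor, 1505 and 5901 against 8441 and 10753 (-1.13). *Cd28*, the costimulatory rival of CTLA-4 (singled out after its values were seen), had a log2 fold change of -0.88. Of 16 further inhibitory receptors, 12 were tested, of which 8 were higher on both IEL arrays and 1 was lower, with a median of 0.59. *Lilrb4*, an inhibitory immunoglobulin-like receptor also made by myeloid and mast cells, read 1558 and 347 against 162 and 48.6 (3.60). *Adora2a*, an adenosine receptor, had a log2 fold change of 1.55, and *Klrc1*, which encodes NKG2A, of 1.34.

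Of 16 signaling partners, 5 were higher and 3 lower on both IEL arrays, with a median of -0.03 that turned to 0.31 under the normexp background correction and to 0.13 without SPL replicate 1. *Trat1*, a transmembrane adaptor of T cells, had a log2 fold change of 1.30, and *Dok1*, an adaptor of CD200R1, of 1.13. *Ptpn6*, which encodes the phosphatase SHP-1, read 2477 and 7753 in the IEL replicates against 11439 and 12058 in the SPL replicates (-0.87). Of 17 measured transcription factors known for inhibitory receptor genes or T cell differentiation, 10 were higher and 2 lower on both IEL arrays, with a median of 0.35. *Tbx21*, which encodes T-bet, read 13187 and 6988 against 4170 and 1827 (2.35). *Prdm1*, which encodes BLIMP-1, read 350 and 270 against 147 and 75.8 (2.09), and the orphan nuclear receptor gene *Nr4a2* 68862 and 30839 against 17201 and 15940 (2.02). These genes shared the order of arrays of the receptors, with IEL replicate 1 highest.

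**Figure D4:**
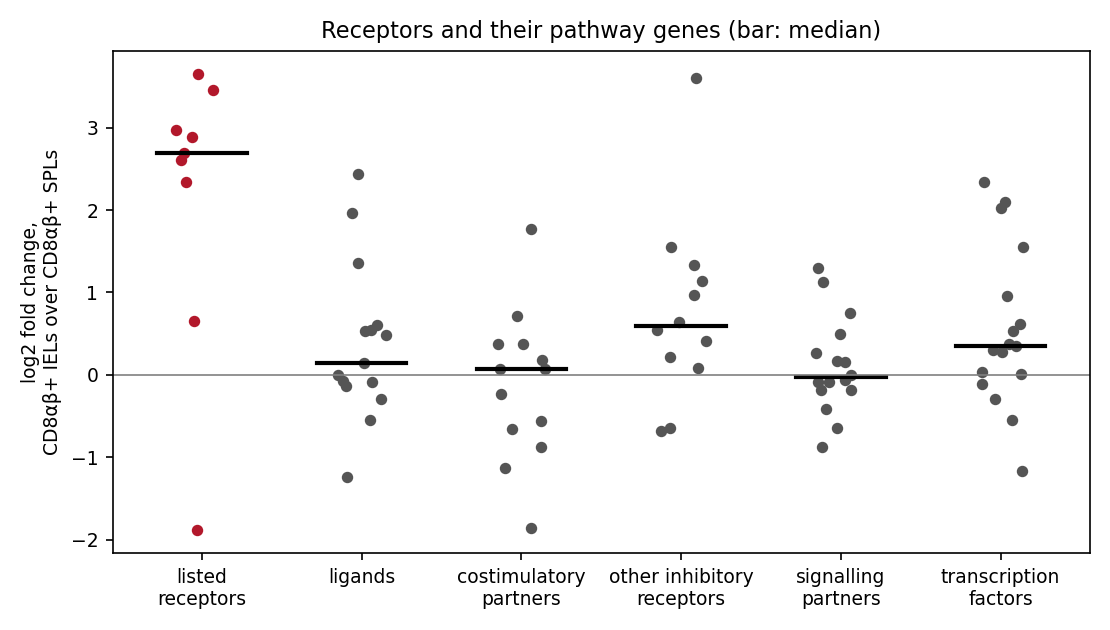
Log2 fold change of CD8αβ+ IELs over CD8αβ+ SPLs (y axis) for the 9 measured receptors and for the tested genes of 5 pathway lists, with 1 point per gene and a bar at the median. The medians are 2.70 for the receptors, and 0.15, 0.07, 0.59, -0.03 and 0.35 for the lists from left to right.

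Markers of other cells moved between the arrays beside the receptors. All 10 markers of CD8 T cells were well above background on every array, with summed scaled levels of 797 and 880 in the IEL replicates, and 901 and 902 in the SPL replicates. Their median log2 fold change was -0.13, which turned to 0.37 under the normexp background correction and to 0.0058 without IEL replicate 1. All 11 markers of the intestinal epithelium were higher on both IEL arrays. The median log2 fold change of these markers, 3.29, turned to -0.0082 under normexp and was 1.91 under its second version. Their summed levels were 26.5 and 5.10 in the IEL replicates, and 2.00 and 0.452 in the SPL replicates, and their order was that of the 8 higher receptors. Of 8 Paneth cell markers, 7 were higher on both IEL arrays, with summed levels of 610 and 13.9, and of 8.77 and 5.22. *Krt20* and *Apoa1* of the epithelium list, and *Itln1*, *Defa21* and *Defa22* of the Paneth cell list, were not well above background in SPL replicate 2. The median difference between SPL replicates 1 and 2 was 1.69 log2 units for the receptors, 1.66 for the epithelial markers and 4.85 for the Paneth cell markers. Between IEL replicates 1 and 2, it was 1.23 for the receptors, 2.07 for the epithelial markers and 5.79 for the Paneth cell markers. The part of these cells, or of other cells of the epithelial layer, in the receptor values was not tested.

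Markers of erythroid cells and neutrophils followed, in their sums, the order of *Btla* on the 4 arrays. The 6 tested erythroid markers were lower on both IEL arrays, with summed levels of 1.18 and 75.04 in the IEL replicates, and 99.1 and 116 in the SPL replicates. The 6 tested neutrophil markers were lower as well, with 0.219 and 35.8 against at least 44.4 in the SPL replicates. Of 10 macrophage and monocyte markers, 8 were lowest in IEL replicate 1, such as *Csf1r*, with an intensity of 10.65 there and of 508 to 914 on the other arrays. Their median log2 fold change was -1.67, which turned to 0.23 without IEL replicate 1. The sum of this list, 38.1 to 48.5 on the 4 arrays, was carried by *Lyz2*, and without it the sum was 1.14 and 10.2 in the IEL replicates, and 13.2 and 5.51 in the SPL replicates. *C1qa* and *Vcam1* of this list, *Ncr1* and *Klra4* of the NK cell list, *Ms4a1*, *Cr2* and *Fcer2a* of the B cell list, and *S100a8*, *Camp*, *Ngp* and *Ltf* of the neutrophil list were not well above background in IEL replicate 1, and were so on the other arrays.

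NK cells are known to express *Cd160*, *Cd244* and *Cd96*. The summed level of 7 NK cell markers was 1.67 and 8.995 in the IEL replicates, and 9.95 and 7.67 in the SPL replicates, most of it from *Tyrobp*. Of these markers, 6 were lowest in IEL replicate 1, whereas *Klrb1c* was highest there (log2 fold change 0.30). CD4+ and regulatory T cells carry *Ctla4* and *Pdcd1*, and the summed level of 4 of their markers was 0.725 and 0.508 in the IEL replicates, and 0.449 and 0.310 in the SPL replicates. *Il2ra* (log2 fold change 1.40) and *Zbtb7b* (0.82) were higher on both IEL arrays, and *Cd4* (0.15) and *Foxp3* (0.06) were not, with *Foxp3* not well above background in IEL replicate 1. The median of this list turned from 0.49 to -0.74 under normexp. The 6 tested dendritic cell markers summed to 9.58 and 4.59 in the IEL replicates, and to 3.38 and 1.87 in the SPL replicates. The sums of this list and of the CD4+ and regulatory T cell list had the order of arrays of the higher receptors. The dendritic cell sum was carried by *Itgax*, and without it the values were 0.905 and 0.825, and 0.658 and 0.642. The median of the dendritic cell markers, 0.29, turned sign under normexp and without IEL replicate 2. The summed level of 6 mast cell and basophil markers was between 0.328 and 0.536. Of 5 listed markers of gamma-delta T cells, 1 had a probe and 0 were tested, so these cells have no value here. The part of any of the cells named above in the receptor values was not tested.

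**Figure D5:**
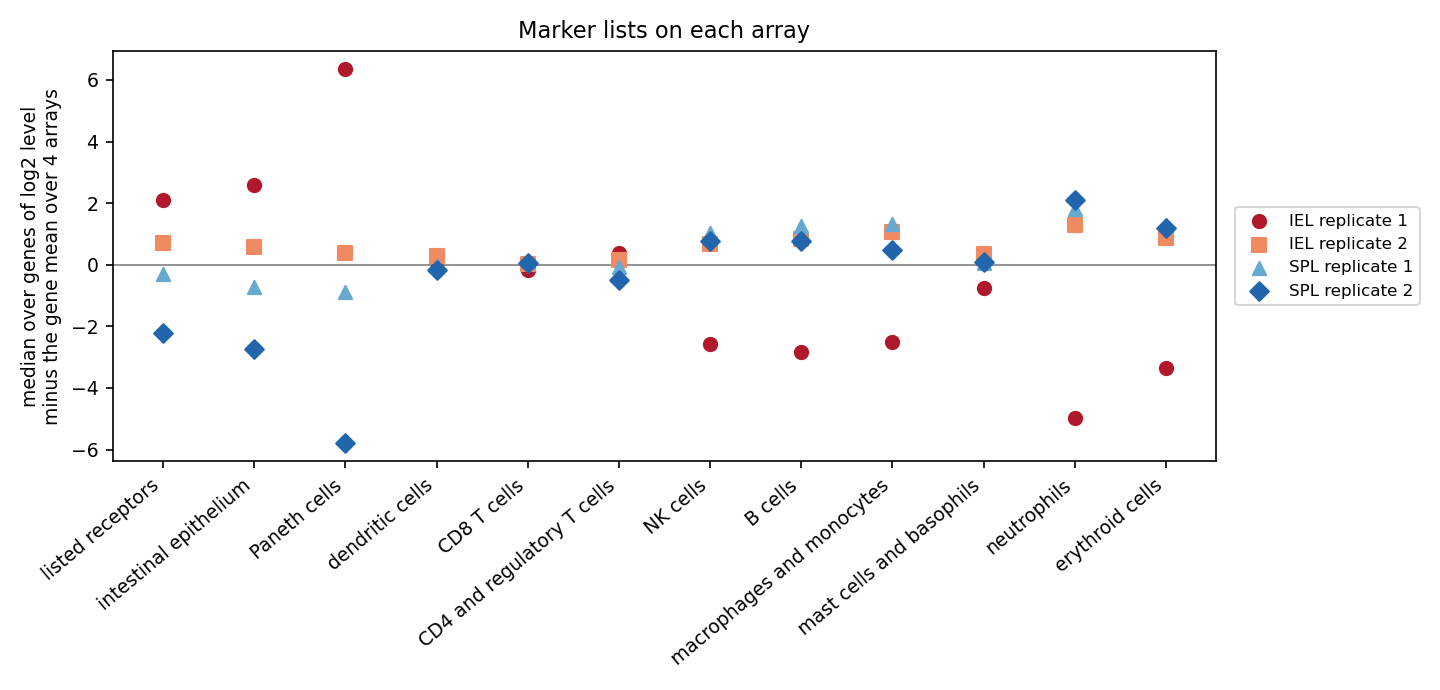
Median over the tested genes of each list (x axis) of the scaled log2 level minus the gene's mean over the 4 arrays (y axis, log2 units), with 1 symbol per array. The receptors and the markers of epithelium, Paneth cells, and CD4+ and regulatory T cells follow the order IEL replicate 1, IEL replicate 2, SPL replicate 1 and SPL replicate 2. IEL replicate 1 lies below the other arrays, at -2.5 or lower, for NK cells, B cells, macrophages and monocytes, neutrophils and erythroid cells.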

How the data were processed

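The authors hybridized total RNA of each sample to 1-color Agilent arrays and deposited, per array, the scanner file with the processed intensity of each spot, from which Feature Extraction (10.7.3.1 in the file headers, 10.7.1.1 in the submitters' processing notes) had subtracted a background. They also deposited a table of log2 values of the same arrays, used here as an alternative only. The study's methods name PrimeView chips, but the files were followed.

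The processed intensity of 43379 spots that were not controls was log2-transformed and scaled by subtraction of each array's 75th percentile. Spots with an outlier mark (98 to 179 per array) were dropped, the remaining spots of a probe were averaged, and 0 spots were saturated. Tested probes had to be well above background in both samples of either group. The comparison used limma 3.58.1 in R 4.3.3, without a block, by two-sided tests with Benjamini-Hochberg adjustment over 27927 probes and a threshold of 0.05. The procedure was tested on simulated data. Calls were required there only at a spread below that of these arrays, so this test does not show what could be detected here. For arrays, their number limits the precision.

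Where a gene had more than 1 tested probe, the brightest on average (log2 scale) stood for it. Named genes were all receptors, and in each pathway list the 3 with the largest absolute log2 fold change when none passed. Members and lists were chosen with earlier results of these data known. Equal replicate numbers were not taken as pairs, because the deviations from the group mean of arrays with the same number were uncorrelated across probes (r = -0.0251). Alternatives were other scalings, normexp background correction (offset 50, in a second version without spots more than 20 units below their background), the deposited log2 table, no or a stricter filter on dim probes, outlier spots kept, an intensity trend, the methods' unpaired test, each sample left out, the replicate number or slide as a block and, for a gene, its average over tested probes. Scaling by the CD8 T cell markers was added after seeing the data, as were the sums of marker lists without their brightest gene and the count of receptors higher on both IEL arrays under each setting. Symbols and positions are those of the array's annotation on mm9, and the accessions of all 13 receptor probes matched RefSeq.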

Additional observations from a re-analysis of the deposited data

How the results depend on the processing

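No receptor changed sign in 19 settings each. In several of these the sign could not change, since a filter, variance trend, other test or block left the receptors' fold changes as they were. Scalings by a single value per array moved every gene alike. The log2 fold changes ranged from 0.93 to 3.40 for *Ctla4*, from 2.18 to 5.13 for *Cd244* and from -3.13 to -0.65 for *Btla*. With each sample left out in turn, 0 to 5526 of all tested probes and 0 to 4 receptor genes passed the threshold in limma, the highest values being those without IEL replicate 2 (5526 probes and 4 receptors). The replicate block gave 0 calls, with a smallest adjusted p of 0.138 over all probes, and the numbers are not known to pair the samples. The median of the receptors, 2.70, ranged from 1.77 to 3.67 with single samples left out. Under normexp it was 1.12, *Cd200r1* had a log2 fold change of 0.15, and the median of all probes shifted by -0.379. The second normexp version gave 2.32 for the receptors and 1.70 for *Cd200r1*, with a shift of 0.153. List medians that turned sign under normexp were those of ligands (-0.06), signaling partners (0.31), CD8 T cells (0.37), CD4+ and regulatory T cells (-0.74), dendritic cells (-0.47) and the epithelium (-0.0082). In the second version, of these lists only signaling partners turned sign (0.04), and the epithelium was at 1.91. The median of mast cells and basophils turned to 0.33 under the second normexp version, to 0.43 with the filter on all arrays and to 0.025 without IEL replicate 1. It was -1.06 without IEL replicate 2. That of dendritic cells was -0.0080 when IEL replicate 2 was left out and 0.53 when IEL replicate 1 was. Medians near 0, those of ligands, costimulatory and signaling partners, also turned sign with single samples left out, as did those of CD8 T cells (0.0058) and macrophages and monocytes (0.23) without IEL replicate 1. The cause of these shifts was not tested. Scaling by the CD8 T cell markers gave 3.63 for *Cd244* and 0.62 for *Cd96*.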
